A study of Mus musculus with 24 samples.

Results

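The 10 genes described here, Saa3, Saa1, Lcn2, Hp, Lrg1, Orm1, Cp, Il6, Ltf and Reg3g, encode acute-phase and antimicrobial proteins that cells secrete, together with interleukin 6, the cytokine that induces many of them. They were chosen by gene symbol, with earlier results of these data known, out of 23891 genes in the expression table. Bulk RNA was sequenced from the left lung lobe of C57BL/6 mice in 4 groups: saline-treated adult mice (naive adult, 20 to 22 weeks, n = 5), saline-treated aged mice (naive aged, 80 to 82 weeks, n = 5), aged mice given house dust mite extract (HDM, 80 to 82 weeks, n = 7) and aged mice given HDM and the corticosteroid dexamethasone (HDM + Dex, 80 to 82 weeks, n = 7). HDM, an aeroallergen extract, was given through the nose at 50 ug per dose, for sensitization on days 1, 3 and 5 and then in challenge blocks on days 11 to 13, 18 to 20 and 25 to 27. Dexamethasone, a synthetic ligand of the glucocorticoid receptor, was injected at 4 mg/kg every 72 h during challenge, and the mice were killed 24 h after their final HDM dose. No adult mice given HDM were analysed here, so the effect of age was measured only between the saline groups.

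The acute-phase response is the change in secreted proteins that follows infection or injury, classically in the liver, where interleukin 6 acts through STAT3 and interleukin 1 and tumor necrosis factor act through NF-kB and C/EBP factors. Airway epithelium, macrophages and fibroblasts also make several of these proteins locally. Some of them withhold iron or bind bacteria, and glucocorticoids are known both to assist the liver response and to dampen cytokine production.

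In aged lungs, HDM was followed by a rise of Saa3 and Lcn2 that passed the test. No other of the 8 genes abundant enough to enter the test passed it. For both genes HDM replicate 2 lay within the naive aged range. Saa3 encodes serum amyloid A3, the amyloid A protein made outside the liver, and Lcn2 encodes lipocalin 2, which binds the siderophores that bacteria use to collect iron. With dexamethasone added, the medians of both genes lay below those of HDM alone and above those of naive aged lungs, and neither difference passed the test. Hp, the haptoglobin gene, had a lower median in both HDM groups that did not pass the test, Cp had overlapping ranges in all aged groups, and Ltf and Reg3g varied several-fold between lungs of the same group.

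The 250 bases before the start are given here for the 2 genes that passed the test, for Saa1, the near relative of Saa3, and for Il6, the inducing cytokine. RefSeq promoters (GRCm38.p6) were matched for 8 of the 10 genes, and not for Hp or Orm1. A set of 4 motifs was searched on both strands, a C/EBP motif (TTGCNNAA), a STAT motif (TTCNNNGAA), the core of the glucocorticoid receptor motif (ACANNNTGT) and the NF-kB consensus. Capitals mark every match, and each sequence runs 5′ to 3′ on the strand of the gene and ends at the base before the start.
Saa3 (chr7:46715677-46715926, minus strand): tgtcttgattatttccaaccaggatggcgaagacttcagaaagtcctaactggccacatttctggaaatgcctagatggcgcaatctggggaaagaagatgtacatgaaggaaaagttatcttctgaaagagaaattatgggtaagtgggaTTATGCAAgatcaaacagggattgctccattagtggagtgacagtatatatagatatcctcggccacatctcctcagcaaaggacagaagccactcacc
Saa1 (chr7:46742981-46743230, minus strand): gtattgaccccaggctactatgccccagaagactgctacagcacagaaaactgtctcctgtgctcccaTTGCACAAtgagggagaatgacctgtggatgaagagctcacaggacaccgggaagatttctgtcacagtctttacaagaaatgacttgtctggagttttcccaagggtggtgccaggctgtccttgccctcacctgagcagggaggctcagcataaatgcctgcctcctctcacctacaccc
Lcn2 (chr2:32387740-32387989, minus strand): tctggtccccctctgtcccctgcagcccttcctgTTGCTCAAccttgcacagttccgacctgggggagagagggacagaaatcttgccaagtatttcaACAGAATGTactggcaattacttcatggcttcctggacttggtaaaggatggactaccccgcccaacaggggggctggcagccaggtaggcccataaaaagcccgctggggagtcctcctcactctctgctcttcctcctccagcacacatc
Il6 (chr5:30012864-30013113, plus strand): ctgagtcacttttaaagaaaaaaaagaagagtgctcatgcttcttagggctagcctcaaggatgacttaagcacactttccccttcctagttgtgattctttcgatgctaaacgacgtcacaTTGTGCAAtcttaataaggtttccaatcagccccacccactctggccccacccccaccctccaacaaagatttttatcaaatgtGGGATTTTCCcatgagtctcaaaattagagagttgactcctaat
The C/EBP motif was found before 6 of the 8 genes, against 9.56% of the 32851 promoters in the table. The 8 genes have 9 promoters there, and a gene was counted if any of its starts matched, while the shares count each promoter. It lay 99 to 92 bases before the start of Saa3, 182 to 175 before that of Saa1, 216 to 209 before that of Lcn2 and 128 to 121 before that of Il6. Cp, from 1 of its 2 starts, and Ltf held it as well. The NF-kB consensus was found before 2 genes, Il6 (44 to 35 bases before the start) and Reg3g, against 7.25% of all promoters. The glucocorticoid receptor core was found before 1 gene, Lcn2 (152 to 144 bases before the start), against 5.84%, and the STAT motif before 0, against 7.02%. None of the motifs was found before Lrg1. These are matches of letters in a short window, and binding was not measured.

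Values are CPM, read counts scaled to the same total in every library, and tests compared log2(CPM + 1) with limma over the 17744 genes whose mean reached 1 CPM, with p-values adjusted by Benjamini-Hochberg over all of them. A difference on this scale understates the change of a gene near or below 1 CPM. Each library held an estimated 10.1 to 33.1 M reads, so that 3 reads amounted to 0.0906 to 0.298 CPM. In the HDM comparison the median gene differed by -0.23 on the log2 scale, and the 7SL RNA share was higher in the HDM groups (medians of 28.1% in HDM and 26.8% in HDM + Dex) than in naive aged lungs (10.9%). Tests were therefore repeated after CPM were rescaled by medians of ratios, which brings the median gene close to 0, and rescaled values are given for some of the genes. That rescaling turned the counts over all genes in the HDM comparison from 717 higher and 3765 lower into 1958 higher and 2035 lower. Among naive adult lungs, replicate 1 stood apart with a 7SL share of 41.98%, beside 13.58 to 17.17% in the others. By Xist, 5 of 5 naive adult, 2 of 5 naive aged, 2 of 7 HDM and 4 of 7 HDM + Dex lungs had Xist above the Y-linked Ddx3y, and the part of sex in the differences was examined only as a covariate. The labels number the samples within a group without saying that each is a separate animal, so p-values measure the spread between these samples. In bulk tissue, fewer cells of a type and less RNA per cell cannot be told apart.

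**Figure D1:**
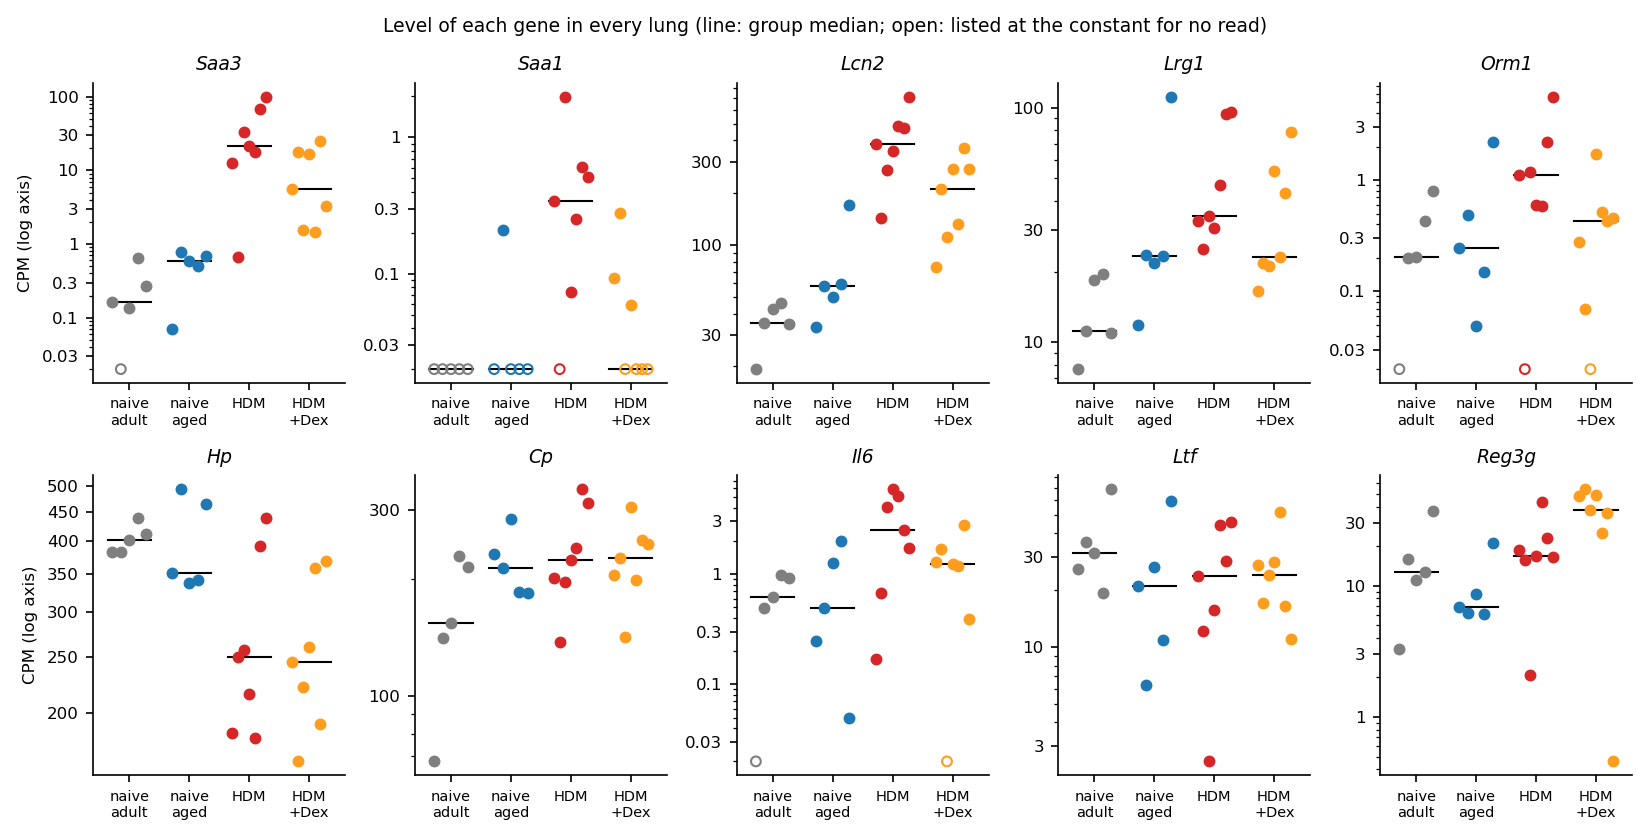
Level of each of the 10 genes in all 24 lungs, in CPM on a log axis, with 1 point per lung, a line at the group median and open circles for lungs listed at the constant that stands for no read. Saa3 and Lcn2 were highest in HDM lungs, with medians of 21.8 and 379 CPM, while the groups of Cp and Ltf overlapped throughout.

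Of the 8 tested genes, 2 were higher in HDM than in naive aged lungs, where 4.04% of all tested genes were higher, and 0 were lower, where 21.2% were. At an unadjusted p under 0.05, 4 of the 8 differed in either direction, against 39.2% of all genes. The median difference of the 8 was 0.72 on the log2 scale, beside -0.23 over all tested genes, and 6 of the 8 were positive.

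Saa3 lay at 0.0707, 0.770, 0.580, 0.503 and 0.693 CPM in the 5 naive aged lungs, which is 2 to 14 estimated reads per lung. In the 7 HDM lungs it ran from 0.670 to 101 CPM, with a median of 21.8. In the HDM group, 6 lungs were at or above 12.7 CPM and 1, replicate 2, lay within the naive aged range. The difference was 3.87 (SE 0.74) on the log2(CPM + 1) scale, with an adjusted p of 0.00126 (limma), and the ratio of the mean CPM was 69.9. Without HDM replicate 2 the difference was 4.49 (adjusted p 4.58e-05). The gene held its call in all 26 alternative settings, with adjusted p-values from 4.58e-05 to 0.0124. The lowest of these differences was 2.41, with a pseudocount of 5 CPM, and the next 3.38.

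Lcn2 lay at 33.5, 57.8, 49.6, 59.4 and 171 CPM in naive aged lungs, and in HDM lungs ran from 144 to 717 CPM with a median of 379. Naive aged replicate 5, at 171 CPM, was above the lowest HDM lung, again replicate 2, and these were the only lungs that crossed. The difference was 2.51 (SE 0.40, adjusted p 0.000509, limma), a ratio of mean CPM of 5.41. After rescaling it was 2.77 (adjusted p 0.000222).

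Saa1, the serum amyloid A that the liver releases into blood, was at the edge of detection. It was listed at the constant for no read in 5 of 5 naive adult and 4 of 5 naive aged lungs, and in 1 of 7 HDM and 4 of 7 HDM + Dex lungs. The HDM lungs held 0 to 20 estimated reads each, up to 1.99 CPM in replicate 3. By an exact permutation test (two-sided, unadjusted) the difference of HDM from naive aged lungs was 0.48 with p = 0.0455, and 10 of the 12 ways to leave out 1 lung brought that p above 0.05. Saa1 has a close relative, Saa2, with which reads could be shared.

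Lrg1 encodes leucine-rich alpha-2-glycoprotein 1, a secreted partner of TGF-beta receptors. It lay at 11.9, 23.4, 21.9, 23.2 and 111 CPM in naive aged lungs and ran from 25.0 to 96.2 CPM in HDM lungs, with a median of 34.6. All HDM lungs were above the 4 lower naive aged lungs, and replicate 5 was above all HDM lungs. The difference of 0.68 (SE 0.45) did not pass the test (adjusted p 0.27, limma), and without naive aged replicate 5 it was 1.17 (adjusted p 0.0425). With the 7SL share as a covariate it was 1.69 (adjusted p 0.0355).

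Orm1, which encodes orosomucoid 1, an acid glycoprotein of plasma, had a mean below 1 CPM over all lungs and did not enter the limma test. Its values were 0.247, 0.490, 0.0485, 0.151 and 2.23 CPM in naive aged lungs, and 0.0001 to 5.64 CPM with a median of 1.11 in HDM lungs. The difference was 0.57 with p = 0.264 by the exact permutation test, two-sided. The highest naive aged lung was again replicate 5.

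Hp encodes haptoglobin, which captures free hemoglobin. It lay at 351, 494, 337, 341 and 465 CPM in naive aged lungs and ran from 181 to 438 CPM, with a median of 250, in HDM lungs. In HDM, 5 lungs were below every naive aged lung and 2, replicates 6 and 7, were within their range. The difference of -0.59 (SE 0.23) had an adjusted p of 0.0582 (limma), and was -0.33 after rescaling (adjusted p 0.18). With the 7SL share as a covariate it was -0.10 (adjusted p 0.83). Replicates 6 and 7 were also the only HDM lungs with Xist above Ddx3y. Their 7SL shares were 15.39% and 14.96%, beside 27.09 to 33.97% in the other HDM lungs. They held the 2 highest HDM values of Saa3, Lrg1, Orm1 and Cp, but not of Saa1, Lcn2, Il6, Ltf or Reg3g. Sex and 7SL share thus ran together within the HDM group, and their separate parts in these values were not tested.

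Cp encodes ceruloplasmin, the copper-carrying ferroxidase of plasma. Naive aged lungs held 232, 213, 285, 185 and 184 CPM, and HDM lungs 137 to 340 CPM with a median of 224. The groups overlapped over most of their range, and the difference was 0.07 with a 95% interval from -0.35 to 0.48. After rescaling it was 0.32 (adjusted p 0.15, limma).

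Il6 was a low transcript, at 0.247, 0.490, 1.26, 2.01 and 0.0496 CPM in naive aged lungs and 0.171 to 5.92 CPM, with a median of 2.51, in HDM lungs. In HDM, 4 lungs were above every naive aged lung, and the other three were within their range. The difference was 0.96 (SE 0.40, adjusted p 0.079, limma) and did not pass the test. It passed with sample quality weights and without HDM replicate 1, HDM replicate 2 or naive aged replicate 4, with an adjusted p of 0.0256 at the lowest.

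Ltf encodes lactotransferrin, an iron-binding protein of mucosal secretions and neutrophil granules, and Reg3g encodes a lectin that kills Gram-positive bacteria at epithelial surfaces. Ltf lay at 21.1, 6.30, 26.6, 10.9 and 59.7 CPM in naive aged lungs and from 2.49 to 46.1 CPM, with a median of 23.8, in HDM lungs. Its difference was -0.01 with a 95% interval from -1.13 to 1.10, and single lungs differed several-fold within both groups. Reg3g lay at 6.92, 6.23, 8.70, 6.13 and 21.1 CPM in naive aged lungs and from 2.09 to 43.2 CPM, with a median of 16.8, in HDM lungs. All HDM lungs other than replicate 3 were above the 4 lower naive aged lungs, and the difference of 0.76 (SE 0.69) had an adjusted p of 0.425 (limma).

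**Figure D2:**
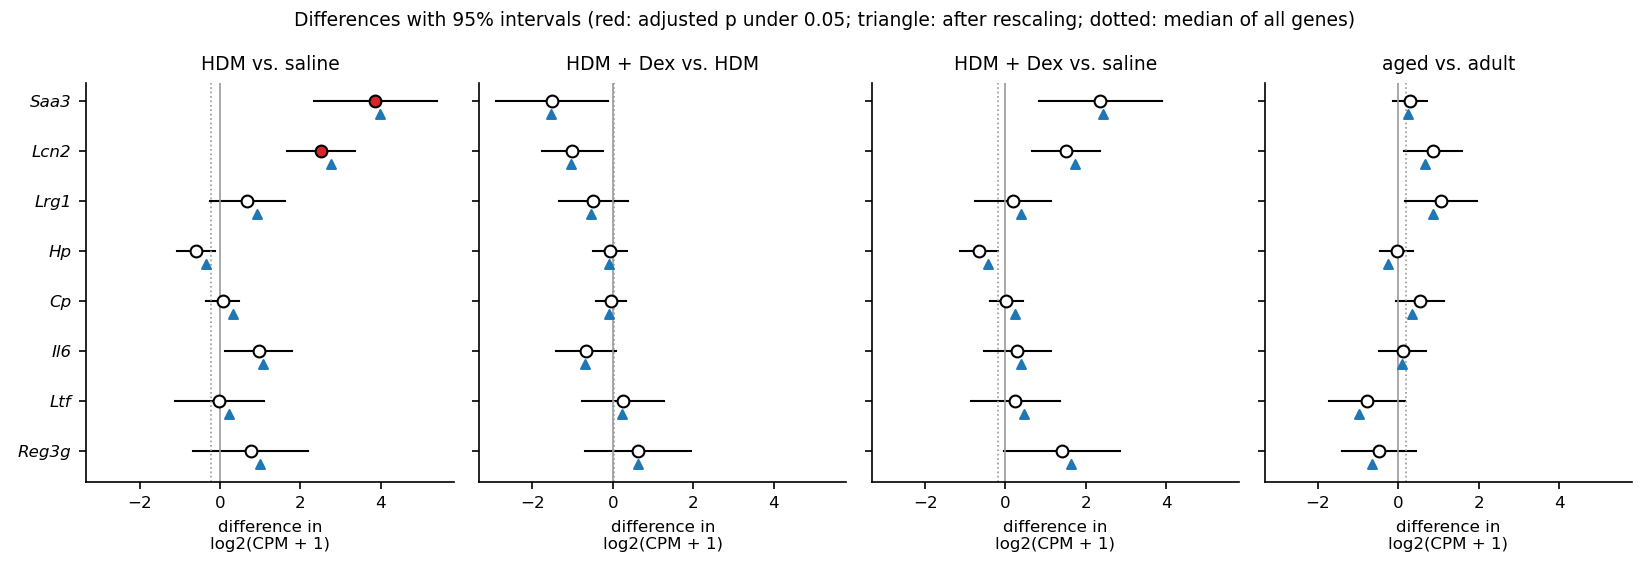
Differences in log2(CPM + 1) of the 8 tested genes in the 4 comparisons, with 95% intervals from limma. Red circles are adjusted p under 0.05, triangles the difference after rescaling, and the dotted line the median of all tested genes; only Saa3 (3.87) and Lcn2 (2.51) in HDM against naive aged lungs are red.

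The comparison of HDM + Dex with HDM lungs asked which of these genes the corticosteroid changed under continued allergen. Of the 8 tested genes, 0 were higher and 0 were lower, where 0.75% and 0.214% of all genes were. At an unadjusted p under 0.05, 2 of the 8 (Saa3 and Lcn2, both lower) differed, against 13.5% of all genes. Saa3 ran from 1.47 to 25.0 CPM in HDM + Dex lungs with a median of 5.57, beside a median of 21.8 in HDM lungs. The difference was -1.51 (SE 0.68, adjusted p 0.313, limma), and 6 of 7 HDM lungs lay above the HDM + Dex median. Without HDM replicate 2, the lung with little Saa3, it was -2.13 and passed the test (adjusted p 0.0331).

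Lcn2 ran from 74.7 to 363 CPM in HDM + Dex lungs, with a median of 211 beside 379 in HDM lungs. The difference was -1.003 (SE 0.37, 95% interval from -1.77 to -0.24), and its adjusted p was 0.198 (limma). None of the 28 alternative settings brought it past the threshold, the nearest being the omission of HDM replicate 2 (adjusted p 0.0588). Saa1 differed by -0.45 (p = 0.0245, exact permutation test, two-sided, unadjusted), from a median of 0.342 CPM in HDM lungs to a median at the constant for no read. When all genes were kept in limma, its adjusted p was 0.232.

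The other genes gave values on both sides of 0. Il6 had medians of 2.51 CPM in HDM and 1.24 CPM in HDM + Dex lungs (difference -0.66, adjusted p 0.454, limma). Lrg1 differed by -0.49 (SE 0.41) and Orm1 by -0.63 (p = 0.117, exact permutation test). Hp and Cp differed by -0.06 and -0.05, with 95% intervals from -0.49 to 0.37 and from -0.42 to 0.33. Reg3g was the member with the largest positive difference, 0.63 (SE 0.63, adjusted p 0.738). Of Reg3g, 6 of the 7 HDM + Dex lungs held 25.1 to 54.5 CPM and replicate 7 held 0.459 CPM; without replicate 7 the difference was 1.32 (adjusted p 0.107).

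Compared with naive aged lungs, HDM + Dex lungs showed 0 of 8 genes higher, where 0.445% of all genes were, and 0 lower, where 1.44% were. Rescaling turned the counts over all genes from 79 higher and 256 lower into 90 higher and 79 lower. At an unadjusted p under 0.05, 3 of the 8 differed (Saa3 and Lcn2 higher, Hp lower), against 21.2% of all genes. Saa3 was the 1 member whose groups did not overlap in this comparison, where 0.524% of all genes did so in the higher direction. All 7 HDM + Dex lungs, at 1.47 CPM or more, lay above the highest naive aged lung at 0.770 CPM, and the difference of 2.35 (SE 0.74) had an adjusted p of 0.0975 (limma).

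Lcn2 differed by 1.51 (SE 0.40) from naive aged lungs, and its adjusted p of 0.0534 lay at the edge of the threshold. After rescaling the difference was 1.72 with an adjusted p of 0.0337, and without naive aged replicate 5 it was 1.86 (adjusted p 0.0341). Reg3g differed by 1.40 (SE 0.69, adjusted p 0.246), and without HDM + Dex replicate 7 by 2.09 (adjusted p 0.0154). Hp differed by -0.65 (SE 0.23, adjusted p 0.125), and by -0.44 after rescaling (adjusted p 0.224). For Saa3 and Lcn2 the order of the groups by their medians was thus naive adult, naive aged, HDM + Dex and HDM, and no pair of neighbours in that order differed by the test. The comparisons share the naive aged and HDM lungs, so they are not independent of each other.

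Between naive aged and naive adult lungs, 0 of 8 genes were higher, where 0.592% of all genes were, and 0 were lower, where 0.062% were. Rescaling turned the counts over all genes from 105 higher and 11 lower into 106 higher and 80 lower. At an unadjusted p under 0.05, 2 of the 8, Lcn2 and Lrg1, differed, against 11.2% of all genes. Lcn2 lay at 19.1, 35.4, 42.6, 46.1 and 34.8 CPM in naive adult lungs, and the difference was 0.86 (SE 0.34, adjusted p 0.349, limma). Lrg1 lay at 7.67, 11.1, 18.4, 19.6 and 10.9 CPM in naive adult lungs, and the difference was 1.06 (SE 0.43, adjusted p 0.353). Both rested in part on naive aged replicate 5: without it they were 0.50 (adjusted p 0.506) and 0.57 (adjusted p 0.483). After rescaling they were 0.65 (adjusted p 0.366, limma) and 0.86 (adjusted p 0.393). The sex covariate gave the highest adjusted p-values of all alternatives for both, 0.677 for Lcn2 and 0.684 for Lrg1 (limma). Xist was above Ddx3y in 5 of 5 naive adult and 2 of 5 naive aged lungs, so age and sex ran partly together in this comparison. Naive adult replicate 1, whose library stood apart in composition, held the lowest Lcn2, Hp, Lrg1, Orm1, Cp, Il6 and Reg3g of its group. After rescaling, its Lrg1 was no longer the lowest, at 12.5 CPM, and its Hp was the highest, at 625 CPM. The rest of these genes stayed lowest in that lung. Without that lung the median difference over all tested genes was 0.044, beside 0.188 with it. Saa3 was listed at 0.162, 0.0001, 0.137, 0.649 and 0.269 CPM in naive adult lungs, which overlapped the naive aged values. Ltf and Reg3g had lower means in naive aged lungs, with differences of -0.77 (SE 0.45) and -0.48 (SE 0.44) that did not pass the test.

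Levels were also compared between genes per kb of exon, as a CPM per kb that corrects for length only. Haptoglobin was the most abundant of the 10 transcripts in every group, at 251 ± 14.4 CPM per kb in naive adult, 248 ± 46.9 in naive aged, 171 ± 63.3 in HDM and 161 ± 49.2 in HDM + Dex lungs (mean ± SD). Lcn2 was in second place in HDM lungs at 153 ± 69.4 CPM per kb, as it was in naive aged lungs at 28.3 ± 20.9, and in the third place in naive adult lungs at 13.6 ± 3.96. Saa3 moved from ninth place, at 0.201 ± 0.105 CPM per kb in naive aged lungs, to the fifth in HDM lungs at 14.03 ± 13.7. Saa1 was the least abundant in all groups.

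Several of these proteins are made by liver, neutrophils or particular lung cells, so the markers of those cells were measured beside them. Over all tested genes, 4.04% were higher and 21.2% lower in HDM than in naive aged lungs. In HDM + Dex against HDM lungs 0.75% were higher, and in naive aged against naive adult lungs 0.592%. Of 8 hepatocyte markers 3 were in the table, and their summed level was 7.74 CPM or less in every lung. Alb, the albumin gene, had a mean of 0.373 CPM in naive aged and 0.0396 CPM in HDM lungs. With group means removed, this low hepatocyte sum still correlated with Cp at r = 0.72, Lcn2 at r = 0.55 and Lrg1 at r = 0.54. The other tested members gave r from 0.11 to 0.32. Neutrophil markers ran opposite to Saa3 and Lcn2 in the HDM comparison: of 9 tested, 0 were higher and 4 lower (S100a8, S100a9, Mmp8 and Trem1), and their summed CPM ran from 98.7 to 341 in naive aged lungs and from 51.9 to 280 in HDM lungs, with medians of 237 and 79.8. After rescaling 2 were lower. Against naive adult lungs, 7 of the 9 were higher in naive aged lungs. Neutrophil precursor markers, of which 4 of 6 were in the table, summed to medians of 3.36 CPM in naive aged and 0.667 CPM in HDM lungs, with single lungs at 19.2 CPM (HDM replicate 7) and 20.51 CPM (HDM + Dex replicate 5).

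Markers of monocytes and interstitial macrophages ran with Saa3 and Lcn2. Of 6 tested, 3 were higher in HDM than in naive aged lungs, C1qa, C1qb and C1qc, and 0 were lower. Ly6c2, Ccr2 and Cx3cr1 did not pass the test on the deposited scale, and after rescaling 5 of the 6 were higher. The summed CPM of the 6 ran from 85.1 to 120 in naive aged and from 97.3 to 347 in HDM lungs. The lowest HDM lung, at 97.3 CPM, was replicate 2, the lung with the least Saa3 and Lcn2. With group means removed, log2(CPM + 1) of Lcn2 and Saa3 correlated with the summed marker level over the 24 lungs at r = 0.71 and r = 0.65, and at r = 0.19 and r = 0.26 with the neutrophil sum. Cp correlated with the monocyte and macrophage sum at r = 0.76. The relation was not particular to these cells: Lcn2 also gave r = 0.67 with both the alveolar type 2 and the mesothelium sums, and Cp r = 0.75 with the mesothelium sum. Alveolar macrophage markers summed to 201 to 290 CPM in naive aged and 400 to 3090 CPM in HDM lungs, with 1 of 5, Chil3, higher. With that sum Lcn2 gave r = 0.43 and Saa3 r = 0.38. These correlations share libraries and depth and are descriptions, and the part of these cells in the result was not tested.

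Hp was compared with airway epithelial markers. All 4 ciliated cell markers (3 after rescaling) and 3 of 4 club cell markers were lower in HDM than in naive aged lungs, and with group means removed Hp correlated with the ciliated sum at r = 0.69 and with the club cell sum at r = 0.64. Hp also gave r = 0.60 with the adipocyte sum and r = -0.59 with the eosinophil sum, so the relation was not particular to airway epithelium. Between groups the relation of Hp to the airway markers did not hold throughout. In HDM + Dex compared with HDM lungs, the medians of the ciliated and club cell markers were 1.37 and 1.48, with 2 of 4 ciliated markers higher, beside -0.06 for Hp. In HDM + Dex compared with naive aged lungs, 0 markers of either list were lower or higher, and Hp did not pass the test either. There the medians of the ciliated and club cell markers were -0.42 and -1.30, in the direction of Hp (-0.65). Reg3g and Ltf ran with goblet cell markers, at r = 0.81 and r = 0.71. Reg3g also gave r = 0.54 with the heart muscle sum, and Ltf r = 0.49 with the adipocyte sum. The HDM lung with the least Reg3g, replicate 3 at 2.09 CPM, held the lowest goblet sum of its group, 38.9 CPM, and so did HDM + Dex replicate 7, with 0.459 CPM of Reg3g and a goblet sum of 221 CPM. Naive aged replicates 1, 2 and 4 held lower goblet sums, of 129, 130 and 171 CPM, with 6.92, 6.23 and 6.13 CPM of Reg3g, so that the relation did not carry over to HDM + Dex replicate 7. The part of these cells in the values of Hp, Reg3g and Ltf was not tested.

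**Figure D3:**
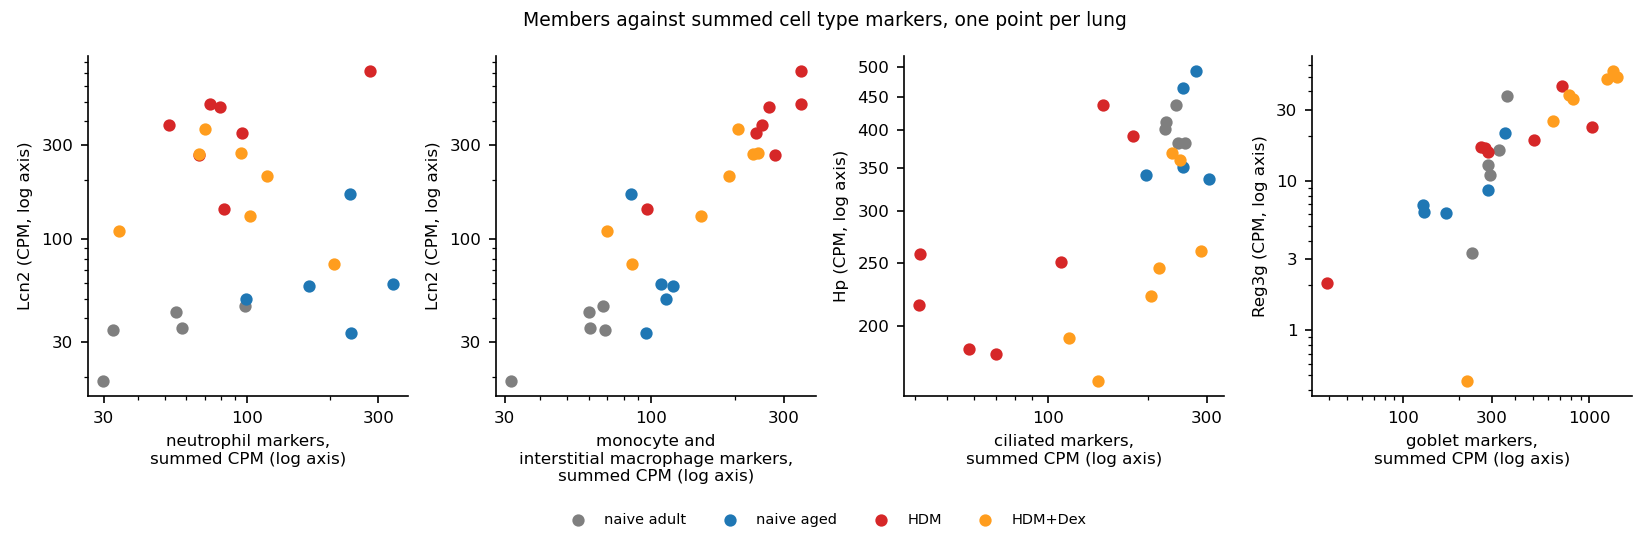
Lcn2, Hp and Reg3g in CPM against summed CPM of cell type markers, both on log axes, with 1 point per lung colored by group. HDM lungs combine high Lcn2 with neutrophil sums from 51.9 to 280 CPM, with a median of 79.8 beside 237 in naive aged lungs, and the lungs with 2.09 and 0.459 CPM of Reg3g have the lowest goblet sums of their own groups.

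Among the 8 tested members the closest pair within groups was Lcn2 and Lrg1, with r = 0.87 over the 24 lungs once group means were removed. Ltf and Reg3g followed at r = 0.64, Saa3 and Lcn2 at r = 0.63 and Saa3 and Cp at r = 0.59, while Hp and Reg3g gave r = -0.32. The median over the 28 pairs, with group means removed, was 0.23.

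**Figure D4:**
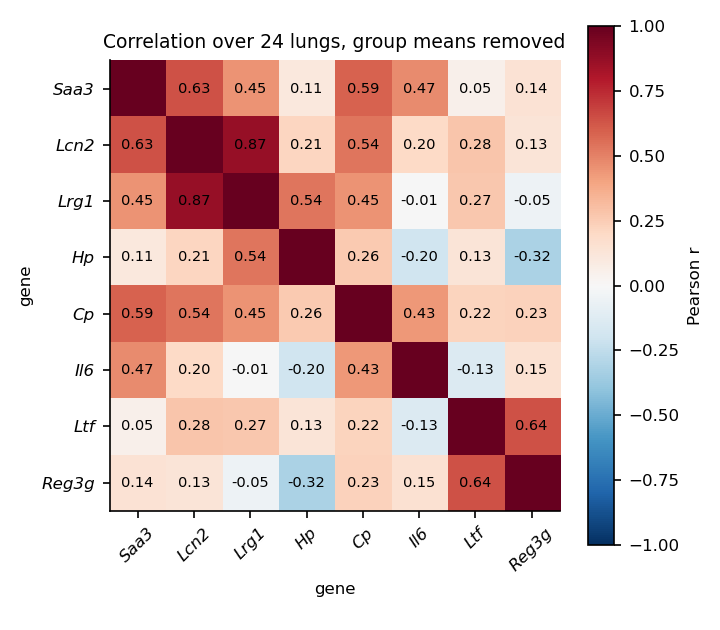
Pearson correlation of log2(CPM + 1) between the 8 tested genes over 24 lungs after group means were removed, with the color scale from -1 to 1. Lcn2 and Lrg1 form the strongest pair (0.87), and Ltf and Reg3g the next (0.64).

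The genes most like each member over all 24 lungs differed between members. Saa3 was most like Timp1, an inhibitor of matrix metalloproteinases (r = 0.94), followed by AA467197 and Rgs16. Lcn2 was most like Msr1, a macrophage scavenger receptor (r = 0.96), followed by Ms4a6d and Itga7. Hp was most like Scnn1b, a subunit of the epithelial sodium channel (r = 0.91), followed by Alas1 and Aldh4a1. Lrg1 was most like Ppp1r14b (r = 0.91), then Bcl3, a partner of NF-kB, and Slc7a5. Cp was most like Pdia3, an endoplasmic reticulum chaperone (r = 0.92), then Glipr2 and Smc2. Il6 was most like Chrna7 (r = 0.81), then Plau and Cd63-ps. Ltf was most like Bpifb1 and Muc5b, both airway secretory products (r = 0.75 and r = 0.74), then 2810001G20Rik. Reg3g was most like Agr2 and Tff2, both made by mucous cells (r = 0.83 and r = 0.82), then Gp2.

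The other genes of the pathway were taken from 8 lists of inducers, factors, effectors and receptors. Over all tested genes, 4.04% were higher and 21.2% lower in HDM than in naive aged lungs. In HDM + Dex against HDM lungs 0.75% and 0.214% were, and against naive aged lungs 0.445% and 1.44%. In naive aged against naive adult lungs, 0.592% were higher and 0.062% lower. In the HDM comparison, of 15 tested genes of the interleukin 6 family and its signalling, 2 were higher, the STAT3 targets Pim1 (0.80, SE 0.18) and Socs3 (0.78, SE 0.27), and 2 were lower, Il6ra (-0.64, SE 0.17) and Lifr (-0.55, SE 0.15). After rescaling the counts were 4 and 1, with Il6ra still lower and Lifr no longer past the threshold. The list median was -0.07, beside -0.23 over all genes. Pim1 passed in all 26 alternative settings, Socs3 in 13 of 26.

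Of 12 other inducing cytokines and receptors, 1 was higher and 0 lower: Il1rn, the interleukin 1 receptor antagonist, had a mean of 7.09 ± 2.25 CPM in naive aged and 33.2 ± 16.6 CPM in HDM lungs (1.94, SE 0.37, adjusted p 0.00121, limma). After rescaling 3 of the 12 were higher and 0 lower. Of 11 transcription factors and regulators of the acute phase, 1 was higher (Nfkb2, 0.57), where 4.04% of all tested genes were. Lower were 3, where 21.2% of all tested genes were: Cebpd (-0.90), Nfkbia (-0.57) and Nr3c1, the glucocorticoid receptor (-0.47). After rescaling 3 were higher and 1 lower, so the direction of the count depended on the scaling, while Nfkb2 stayed higher and Cebpd lower. Nr3c1 passed in 14 of 26 alternatives.

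Of 14 other acute-phase proteins tested, 6 were higher and 0 lower in HDM than in naive aged lungs, and 9 and 0 after rescaling. C3, the central complement component, was higher by 1.70 (SE 0.32, adjusted p 0.00116, limma), from 661 ± 109 to 2285 ± 680 CPM. Steap4, a metalloreductase, was higher by 1.53 (SE 0.23) and Ptx3, the long pentraxin, by 1.34 (SE 0.25). Cfb, Fn1 and Cd14 completed the set, with differences of 1.25, 1.17 and 0.98. C3, Steap4, Cd14 and Ptx3 passed in every alternative that tested them, Fn1 in 25 of 26 and Cfb in 12 of 26. The list median was 0.76, beside -0.23 over all genes.

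Of 12 other antimicrobial secreted proteins tested, 2 were higher, Slpi (0.88) and Sftpd (0.79), and 5 were lower. The largest was Bpifa1, a secreted airway epithelial protein, from 49.7 ± 51.0 CPM in naive aged to 5.43 ± 8.39 CPM in HDM lungs (-3.21, SE 0.73, adjusted p 0.00388, limma). Lyz1 (-1.84), S100a9 (-1.52), S100a8 (-1.46) and Wfdc2 (-0.88) were the others. After rescaling 3 were higher and 3 lower, and S100a9 and Wfdc2 no longer passed. Bpifa1 passed in all 26 alternatives, Slpi and Wfdc2 in 12 each, and Wfdc2 had a value of 0.046 with the 7SL share as a covariate. The list median was -0.56.

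Among 13 receptors and partners of the members, Itln1, an intelectin that binds lactoferrin, was higher by 1.56 (SE 0.39) and Scarb1, a lipoprotein receptor that also binds serum amyloid A, by 0.36 (SE 0.12). Eng, a TGF-beta coreceptor of endothelium, was lower by -0.91 (SE 0.22). Slc22a17, a receptor for lipocalin 2, and Cd163, the receptor for haptoglobin bound to hemoglobin, differed by -0.19 and 0.03 and did not pass the test. Of 13 genes of iron and heme handling, 1 was higher, Slc11a1, a metal transporter of macrophage phagosomes (0.92, SE 0.30), and 0 were lower. After rescaling 6 of these 13 were higher and 0 lower, and of the receptors and partners 4 were higher and 1 lower.

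Of 9 glucocorticoid-induced genes, 0 were higher and 6 were lower in HDM than in naive aged lungs, and 3 were lower after rescaling. Errfi1 (-1.69), Dusp1 (-1.21) and Zbtb16 (-1.21) were the largest, and the list median was -1.02. In HDM + Dex compared with HDM lungs, 0 of the 9 were higher and 0 lower, with a median of -0.18 beside 0.03 over all genes. Tsc22d3, which encodes the glucocorticoid-induced leucine zipper, had means of 202 ± 64.8 CPM in naive aged, 96.5 ± 19.5 CPM in HDM and 83.2 ± 23.4 CPM in HDM + Dex lungs. Dusp1 and Errfi1, the most abundant of the list, differed by -0.08 and 0.21 from HDM lungs. In HDM + Dex compared with naive aged lungs, 6 of the 9 were lower, Zbtb16 (-1.57), Errfi1 (-1.49) and Tsc22d3 (-1.26) the most, and 3 after rescaling.

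Across the 8 lists, 2 genes passed the test between HDM + Dex and HDM lungs, both lower. After rescaling 5 were lower, with Slpi (-1.08, adjusted p 0.0491), Scarb1 (-0.46, adjusted p 0.0253) and Slc11a1 (-0.86, adjusted p 0.0491) beside them. Il1rn was lower by -1.60 (SE 0.34, adjusted p 0.0292, limma), at 9.87 ± 5.65 CPM, and Ptx3 by -0.996 (SE 0.23, adjusted p 0.0369), at 0.740 ± 0.485 CPM beside 2.61 ± 1.63 CPM in HDM lungs. Both calls depended on the setting, since Il1rn passed in 18 of 28 alternatives and Ptx3 in 12 of 27, and neither passed with only the 2 groups in the fit (adjusted p 0.0838 and 0.103). C3 and Steap4 differed from HDM lungs by -0.47 (SE 0.29) and -0.14 (SE 0.21), did not pass the test, and were higher in HDM + Dex than in naive aged lungs by 1.24 (adjusted p 0.0479, past the threshold in 11 of 26 alternatives) and 1.38 (adjusted p 0.00381, in 26 of 26). Pim1 and Itln1 were likewise higher than in naive aged lungs, by 0.75 and 2.06, while Cebpd (-1.02) and Nfkbia (-0.78) were lower and did not pass after rescaling. In the lists with 0 genes past the threshold on the deposited scale, the most abundant listed genes did not pass the test: Il6st, the shared receptor gp130, by 0.14 (adjusted p 0.666), Nfkb1 by -0.14 (adjusted p 0.671), Lyz2 by -0.07 (adjusted p 0.955), Lrp1 by -0.30 (adjusted p 0.232) and the ferritin gene Fth1 by -0.36 (adjusted p 0.292). Between naive aged and naive adult lungs, which differed in the share of lungs with higher Xist as well as in age, 2 listed genes were higher, S100a8 (2.19, SE 0.31) and S100a9 (2.06, SE 0.33), and 1 was lower, Bpifb1 (-1.49, SE 0.28). S100a8 passed in all 23 alternatives. S100a9 passed in 21 of 23, not with the sex covariate or with all 24 samples in one fit, where its adjusted p was highest (0.0823). Bpifb1 passed in 18 of 23, not in those same fits (highest adjusted p 0.399, all 24 samples in one fit), nor without naive adult replicate 2 or naive aged replicate 2 or 4.

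**Figure D5:**
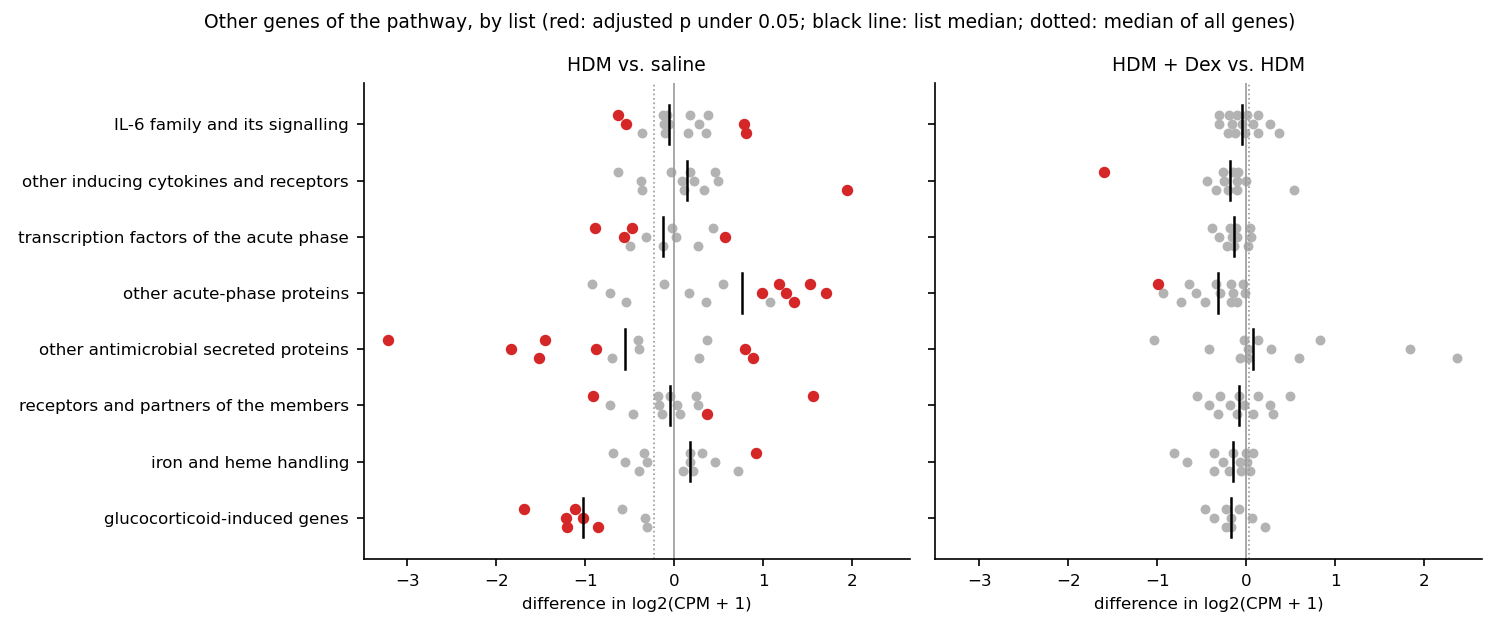
Differences in log2(CPM + 1) of the tested genes of the 8 lists, for HDM against naive aged lungs and for HDM + Dex against HDM lungs, with 1 point per gene, red for an adjusted p under 0.05, a black line at each list median and a dotted line at the median of all genes. The list of other acute-phase proteins has its median at 0.76 in the HDM comparison, and with dexamethasone only Il1rn and Ptx3 are red.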

How the data were processed

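RNA of 24 left lung lobe samples was sequenced with a stranded mRNA kit as paired reads. The deposited values are CPM (read counts scaled to a fixed total per library) for 23891 genes, made by the authors with a STAR and limma pipeline. The submitters' processing notes also name FastQC and DESeq2, as well as mm9, although gene starts in the table equal those of GRCm38 for 23142 of 23276 genes. CPM steps gave whole reads for 80.3 to 85.1% of low values (tolerance 0.05), so no count model was used. The constant 0.0001 CPM stands for no read. Here, log2(CPM + 1) of 17744 genes was fitted with limma 3.58.1 (R 4.3.3, eBayes with trend) over the 19 aged lungs together and over the 10 naive lungs. A threshold of 0.05 on the adjusted p defines a call. The study's methods state fewer samples per group than the 2 HDM groups hold here, and all labelled samples were used. Saa1 and Orm1 had exact permutation tests, also run in R. Correlations between genes, motif searches and figures were made with Python 3.11.15. The fit was tested on simulated data with independent normal values for each gene. Those data held no shift in composition and no outlying lungs, so the test does not bear on these features. Alternatives covered the pseudocount, the filter, the scaling, the samples in the fit, weights, covariates, a replicate block and each lung left out. They were extended to the called list genes after seeing the data.

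The members and gene lists were chosen with earlier results of these data known. From each list, the rule named up to 3 called genes with the largest difference, or up to 2 of the most abundant where none was called, and for each member the 3 genes with the highest r. Other listed genes named in the text were chosen after their values were seen. The pathway lists were also compared for each comparison as counts, without a set test.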

Additional observations from a re-analysis of the deposited data

Results flagged for a closer look

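In 6 of 40 groups of values (10 genes in 4 groups of lungs), 1 lung lay farther from the others than Dixon's limit allows. For values without ties, chance gives about 1 in 20, or 2. Saa1 values were often tied at the constant for no read, in naive adult lungs in all 5. The 6 and the 2 therefore cannot be set against each other. Saa1 stood apart in naive aged replicate 2, at 0.210 CPM with the other lungs listed at no read, and in HDM + Dex replicate 2, at 0.279 CPM. Both values rest on 3 and 4 reads. Orm1 stood apart in HDM + Dex replicate 4, at 1.72 CPM, beside 0.520 CPM in the next lung. Reg3g stood apart in 3 groups: it was highest in naive aged replicate 5, at 21.1 CPM, and lowest in HDM replicate 3, at 2.09 CPM, and in HDM + Dex replicate 7, at 0.459 CPM. The goblet marker sum was the highest of its group in the first of these lungs, at 352 CPM, and the lowest of its group in the other two, at 38.9 and 221 CPM. The part of goblet cells in these values was not tested.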

How the results depend on the processing

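The rise of Saa3 and Lcn2 with HDM passed the threshold in all 26 alternatives, with adjusted p-values (limma) up to 0.0124 and 0.00307, and no member with a call reversed in any comparison. The count of members higher with HDM was 2, and 3 with sample quality weights (Il6), the 7SL covariate (Lrg1) and in 4 omissions of 1 lung (Il6 without HDM replicate 1 or 2 or naive aged replicate 4, Lrg1 without naive aged replicate 5). The count lower was 0, and 1 (Hp) with sample quality weights, the replicate block or the sex covariate, and 0 to 1 with 1 lung left out (1 without HDM replicate 6 or 7). In HDM + Dex against HDM lungs, 0 were lower, and 0 to 1 with 1 lung left out (Saa3 without HDM replicate 2). In HDM + Dex against naive aged lungs, 0 were higher, and 1 (Lcn2) with the replicate block, the sex covariate, all 24 samples in one fit, quantile normalization, a filter at 5 CPM or rescaling by medians of ratios. It was 2 (Saa3 and Lcn2) with only the 2 groups compared, 3 (with Reg3g) with sample quality weights, and 0 to 1 with 1 lung left out (Lcn2 without naive aged replicate 5 or HDM + Dex replicate 1, Reg3g without HDM + Dex replicate 7). The count of members lower there was 1 (Hp) with sample quality weights, the replicate block or the sex covariate. The cause of these changes was not tested. Deviations of same-numbered lungs from their group means had median correlations of 0.01, -0.09, 0.00 and -0.10 in the 4 comparisons. Of the pairs, 1 of 5, 2 of 7, 0 of 5 and 0 of 5 were over 0.1. The highest single pairs were 0.41 in HDM + Dex against HDM and 0.30 in HDM against naive aged lungs, and the lowest was -0.24. So few pairs cannot settle whether the numbers pair the lungs. Over all genes, HDM against naive aged lungs gave 717 higher and 3765 lower, with 473 to 1958 and 399 to 6713 over the alternatives. HDM + Dex against HDM gave 133 and 38, with 0 to 420 and 1 to 250, HDM + Dex against naive aged lungs 79 and 256, with 24 to 476 and 6 to 4995, and aged against adult lungs 105 and 11, with 57 to 478 and 2 to 306. HDM + Dex against HDM gave 0 and 1 with only the 2 groups compared and 2 and 6 with the replicate block. For called list genes, run after seeing the data, Wfdc2 with HDM went from -0.88 to 0.046 with the 7SL covariate (adjusted p 0.93). Depth limited Saa1, Orm1, Il6 and, in the naive lungs, Saa3, since 3 reads are up to 0.298 CPM.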

Other observations

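Among the relatives of the members, Saa4 and Orm2 lay under the filter and were not tested. Saa4, another serum amyloid A gene, was listed at no read in 4 of 5 naive aged lungs, with 0.0990 CPM in the other, and ran from 0.335 to 1.35 CPM in HDM lungs (mean 0.756 ± 0.390) and from 0.0001 to 1.15 CPM in HDM + Dex lungs. Orm2, the neighbour of Orm1, had means of 0.128 ± 0.0656 CPM in naive aged, 0.819 ± 0.846 CPM in HDM and 0.267 ± 0.379 CPM in HDM + Dex lungs. Near-identical sequences among these genes can share reads, so their single values are uncertain.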
